A study of Mus musculus with 4 samples.

Results

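Metallothioneins and zinc handling genes were described by 4 genes, Mt1, Mt2, Mtf1 and Slc30a1, of 32285 genes in the deposited matrices. Each was found by its symbol, and its UMIs (unique molecular identifiers, counts of captured transcripts) were summed per library and cell class. The 4 genes were chosen on their measured values in these same libraries, because Mt2 was higher in cKO monocytes than in WT monocytes, so their values of cKO against WT in monocytes are a description without a test. Counts of other genes in that contrast are given for reference and support nothing about the 4 genes. Tests are given for other cell classes and for comparisons between classes. The cells came from MC38 tumours, grown from a mouse colorectal tumour line under the skin of mice that were 8 weeks old at injection, and were sorted for the leukocyte surface protein CD45. Trim25 conditional knockout mice gave 2 libraries (cKO-1 and cKO-2) and WT mice gave 2 (WT-1 and WT-2). The series title places the loss of Trim25, a ubiquitin ligase gene, in T cells, so other cell types of cKO tumours are described beside T cells in which it was targeted. The promoter that drives the deletion, the exons removed and the number of mice behind each library were not stated in the sources used here.

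Metallothioneins are small cysteine-rich proteins that bind zinc and copper ions, and Mt1 and Mt2 encode the pair made by most mouse cells. Mtf1 encodes the metal-sensing transcription factor that binds metal response elements in the promoters of Mt1, Mt2 and Slc30a1. Slc30a1 encodes the zinc exporter ZnT1 of the plasma membrane. In macrophages and monocytes, zinc binding and zinc export are known as means of limiting free zinc in the cell, and metallothionein transcription is also known to respond to glucocorticoids and to oxidative stress.

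On GRCm38, Mt2 lies on chromosome 8 from 94172664 to 94173568 and Mt1 on chromosome 8 from 94179082 to 94180327, both on the plus strand, with 5513 bases between the end of Mt2 and the start of Mt1. Slc30a1 lies on chromosome 1 from 191906767 to 191913247 and Mtf1 on chromosome 4 from 124802104 to 124849800, again on the plus strand. The longest run of bases that the Mt1 and Mt2 transcripts share is 20 bases. The promoter windows of the 3 genes known as MTF1 targets are shown because they carry the core of the metal response element, searched as TGCACNC or TGCGCNC on both strands. The sequences are from RefSeq (GRCm38.p6), 5′ to 3′ on the plus strand, with the cores in capitals. Each runs from 250 bases before to 50 bases after the RefSeq start, which differs from the gene start given above. The windows are chr8:94172368-94172667 for Mt2, chr8:94178839-94179138 for Mt1 and chr1:191906531-191906830 for Slc30a1.
Mt2: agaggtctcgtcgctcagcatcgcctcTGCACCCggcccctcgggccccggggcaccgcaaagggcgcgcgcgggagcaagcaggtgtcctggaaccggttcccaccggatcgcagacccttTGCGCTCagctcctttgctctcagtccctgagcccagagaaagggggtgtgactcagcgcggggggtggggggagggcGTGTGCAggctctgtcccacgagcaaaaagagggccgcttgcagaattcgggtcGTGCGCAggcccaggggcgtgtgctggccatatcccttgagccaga
Mt1: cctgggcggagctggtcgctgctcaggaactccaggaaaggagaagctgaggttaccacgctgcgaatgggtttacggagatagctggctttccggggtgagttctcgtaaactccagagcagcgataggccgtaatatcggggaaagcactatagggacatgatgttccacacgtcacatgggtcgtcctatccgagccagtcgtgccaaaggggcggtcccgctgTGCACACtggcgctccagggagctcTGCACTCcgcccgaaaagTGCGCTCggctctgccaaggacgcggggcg
Slc30a1: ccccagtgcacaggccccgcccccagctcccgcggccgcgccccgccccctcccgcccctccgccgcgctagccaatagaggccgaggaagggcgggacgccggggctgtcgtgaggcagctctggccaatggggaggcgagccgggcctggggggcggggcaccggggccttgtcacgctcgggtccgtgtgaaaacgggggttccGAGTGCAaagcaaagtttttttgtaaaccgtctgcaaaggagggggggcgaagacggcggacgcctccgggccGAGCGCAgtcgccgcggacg
The window of Mt2 held 4 cores, 2 on each strand, that of Mt1 held 3, all on the plus strand, and that of Slc30a1 held 2, both on the minus strand. The window of Mtf1 held 0. Of 32851 RefSeq windows of this length, 25.7% held at least 1 core, 7.11% at least 2, 1.97% at least 3 and 0.517% at least 4. A match describes letters only, and binding was not measured.

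The libraries held 101176581 UMIs in cKO-1, 115111783 in cKO-2, 96751399 in WT-1 and 127449324 in WT-2. After filters, 39906 cells were kept, with library medians of 7795 to 10017 UMIs per cell, and 42 to 59 cell barcodes were shared between any pair of libraries. Clusters were named from marker genes, which gave 15 classes in which the 4 genes were described. These classes held 31518 cells, while 6024 cells of unnamed clusters and 2364 mixed droplets were in none of them. Unnamed cells made up 16.2% and 10% of kept cells in cKO-1 and cKO-2, against 18.8% and 15.2% in WT-1 and WT-2. CD8, conventional CD4 and regulatory T cells (Treg) were also pooled as all T cells. The labels name the sampled cells as the tumour line, but in every class except plasmacytoid dendritic cells and type 2 dendritic cells the summed epithelial tumour markers stayed at or below 17.6 CPM (counts per 1000000 UMIs of the class and library), with Cldn4 at 0 in all classes. Fibroblast-like cells were present despite the CD45 sort, and their fibroblast markers summed to 1107 and 1665 CPM in cKO-1 and cKO-2, against 1200 and 1595 CPM in WT-1 and WT-2. Of the 6 fibroblast markers, Lum was at 0 in this class, which was led by Col6a1, Brinp3, Col6a3 and Rhox5. Whether these cells are fibroblasts or cells of the tumour line was not tested. Ptprc, which encodes CD45, was found in 52.8% and 51% of these cells in the cKO libraries, against 46.1% and 62.9% in the WT libraries. B cells had Ptprc in 92.3% and 93.8% of cKO cells, against 92.5% and 89.7% of WT cells. The median depth was 2816 and 3437 UMIs in cKO and 1507 and 2544 in WT for fibroblast-like cells, and 3644 and 3608 in cKO and 2939 and 2871 in WT for B cells. Trim25 was at 49.7 and 43.2 CPM in all T cells of cKO-1 and cKO-2, against 64.8 and 61.5 CPM in WT-1 and WT-2, and a 3′ tag can lie outside the deleted part. In monocytes Trim25 was at 255 and 277 CPM in cKO-1 and cKO-2, against 278 and 283 CPM in WT-1 and WT-2, with cKO-2 and WT-1 nearly equal. Macrophages had 135 and 166 CPM in cKO, against 156 and 179 CPM in WT, with overlap.

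Mt1 and Mt2 were each found at their highest level in the fibroblast-like cells. Mt1 was there at 1184 and 1549 CPM in cKO-1 and cKO-2, against 821 and 1075 CPM in WT-1 and WT-2. Over the 4 libraries it averaged 1157 ± 302 CPM (SD, n = 4), and its range lay above that of macrophages, which came next at a mean of 172 CPM. From macrophages down, the ranges of neighbouring classes overlapped, through Treg, CD8 T cells and NK cells to B cells and, at the bottom, plasmacytoid dendritic cells, with a mean of 10.99 CPM. Mt1 was thus found in every leukocyte class, with no step between neighbouring classes that exceeded the spread of the libraries.

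Mt2 had a different order below the fibroblast-like cells, with cytotoxic and regulatory lymphocytes ahead of myeloid cells. In fibroblast-like cells it was at 624 and 817 CPM in cKO-1 and cKO-2, against 487 and 582 CPM in WT-1 and WT-2. CD8 T cells came next with a mean over the 4 libraries of 47.1 CPM, then NK cells with 33.9 CPM, Treg with 33.8 CPM and macrophages with 21.2 CPM, and the ranges of these neighbours overlapped. Plasmacytoid dendritic cells had Mt2 at 2.26 and 1.41 CPM in cKO-1 and cKO-2, against 4.86 and 1.54 CPM in WT-1 and WT-2. The number of Mt2 UMIs per 100 Mt1 UMIs was higher in fibroblast-like and CD8 T cells than in macrophages in each library. It was 52.7 and 52.8 in cKO against 59.4 and 54.1 in WT fibroblast-like cells, and 31.3 and 41.8 in cKO against 35.8 and 31.3 in WT CD8 T cells. In macrophages this ratio was 14.8 and 10.2 in cKO, against 12.0 and 11.3 in WT. Monocytes had 12.6 and 15.5 in cKO, against 6.79 and 8.09 in WT. In classes with few Mt2 UMIs it varied widely between libraries, as in B cells, with 27.8 and 35.3 in cKO, against 3.03 and 33.7 in WT.

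Mtf1, the transcription factor gene, varied less in level between classes than the other 3 genes, with class means from 14.6 CPM in neutrophils upwards. In monocytes it was at 21.0 and 19.4 CPM in cKO-1 and cKO-2, against 19.7 and 21.0 CPM in WT-1 and WT-2. Its highest mean, 53.1 CPM, was in migratory dendritic cells, with 26.2 and 76.6 CPM in cKO and 58.4 and 51.0 CPM in WT. Type 1 dendritic cells followed at a mean of 32.5 CPM, and their range lay above that of macrophages, at a mean of 23.2 CPM.

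Slc30a1, the zinc exporter gene, had its highest mean in monocytes, a class with less metallothionein RNA than macrophages. It was at 58.8 and 54.3 CPM in cKO-1 and cKO-2, against 52.6 and 49.0 CPM in WT-1 and WT-2. Neutrophils, few in number, had 5.54 and 83.8 CPM in cKO, against 34.2 and 18.5 CPM in WT, and their range overlapped that of monocytes. Macrophages had 16.7 and 19.98 CPM in cKO, against 21.2 and 21.4 CPM in WT. In CD8 T cells the level was 4.51 and 4.78 CPM in cKO, against 2.76 and 3.59 CPM in WT, and the means of NK cells, conventional CD4 T cells, Treg and B cells were 4.13, 4.49, 4.65 and 6.18 CPM.

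**Figure D1:**
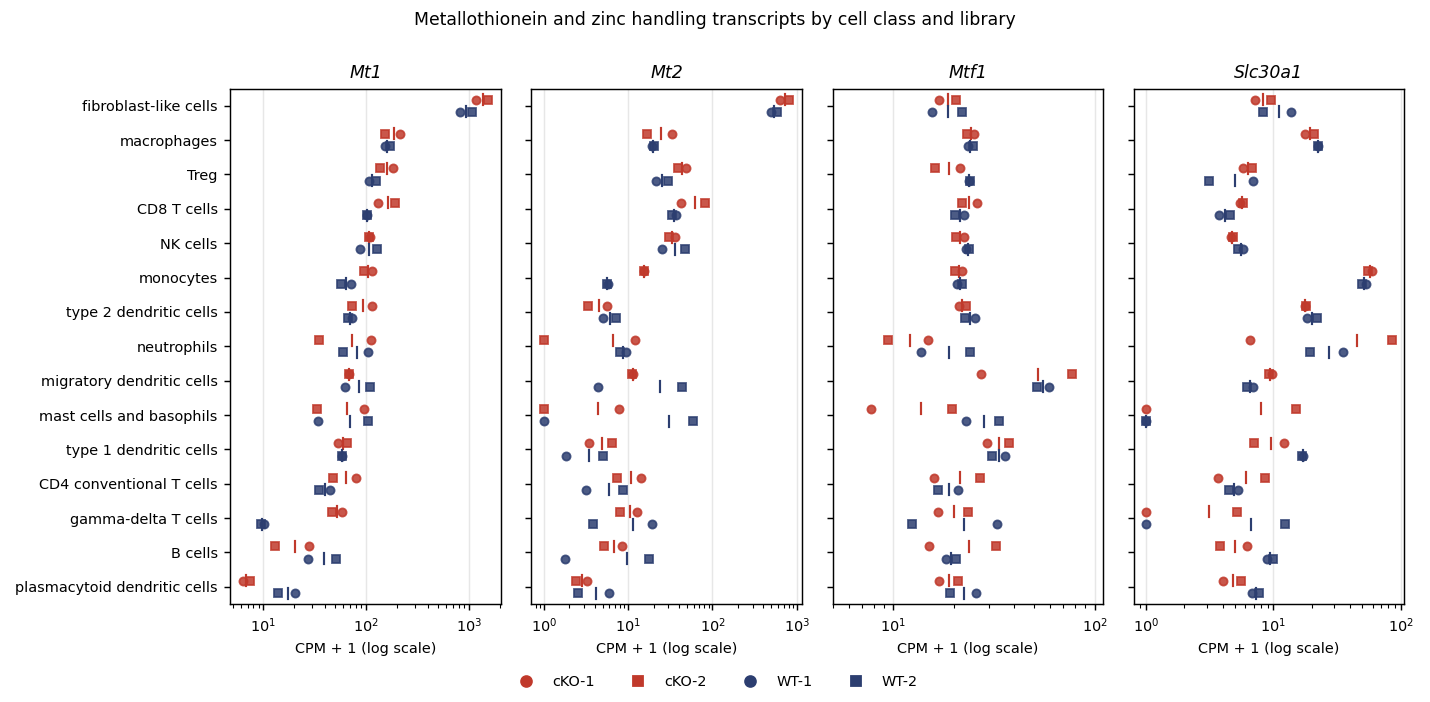
Level of Mt1, Mt2, Mtf1 and Slc30a1 (CPM, log axis) in each cell class, with 1 point per library. Mt1 and Mt2 were highest in fibroblast-like cells (means of 1157 and 627.6 CPM), Mtf1 ranged from 14.6 to 53.1 CPM in class means and Slc30a1 had its highest mean in monocytes (53.7 CPM).

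The differences between related classes were tested within libraries, and each gene's direction was read in all 4. Against monocytes, macrophages had 1.89 and 1.64 times the CPM of Mt1 in cKO-1 and cKO-2, and 2.15 and 3.03 times in WT-1 and WT-2. The log2 fold change was 0.85 ± 0.12 (SE; adjusted p = 0.000114, edgeR quasi-likelihood test with Benjamini-Hochberg adjustment over all genes). Mt2 was also higher in macrophages in 4 of 4 libraries (1.02 ± 0.27), by ratios of 2.21 and 1.07 in cKO and 3.81 and 4.24 in WT. This comparison has as one arm the monocyte Mt2 values on which the genes were chosen, so it is a description. Slc30a1 was lower in macrophages in 4 of 4 libraries (-1.66 ± 0.09, adjusted p = 1.44e-07, edgeR). Mtf1 had a log2 fold change of -0.03 ± 0.06 (adjusted p = 0.703, edgeR), while its CPM ratio was 1.14 to 1.16, so its sign depended on the scaling. Of all genes tested in this comparison, 64.9% were called, so the calls of Mt1 and Slc30a1 are near the background.

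The metallothionein difference between macrophages and monocytes rested on 1 macrophage cluster. That cluster, led by the complement genes C1qa, C1qc and C1qb and by Mmp12, had median depths of 2393 and 2482 UMIs per cell in cKO-1 and cKO-2, against 1916 and 2061 in WT-1 and WT-2. The other large macrophage cluster, led by Itga9, Spon1 and Mertk, had 15908 and 14137 UMIs per cell in cKO, against 12116 and 11597 in WT. Mt1 averaged 809 ± 224 CPM in cKO and 679 ± 14 CPM in WT in the C1q-led cluster (SD, n = 2 each), and 101 ± 2.7 CPM in cKO and 100 ± 10.7 CPM in WT in the Itga9-led cluster. Mt2 averaged 144 ± 53 CPM in cKO and 116 ± 8.3 CPM in WT in the C1q-led cluster, and 7.69 ± 2.83 CPM in cKO and 7.32 ± 0.67 CPM in WT in the Itga9-led one. The C1q-led cluster held 12.9% and 9.8% of macrophage UMIs in cKO and 9.66% and 11.2% in WT, yet 73.4% and 67% of their Mt2 UMIs in cKO and 65.6% and 64.1% in WT. With this cluster left out, a choice made after seeing the data, macrophages had log2 fold changes against monocytes of 0.08 for Mt1 (adjusted p = 0.633, edgeR) and -0.46 for Mt2. Ptprc was found in 64.8% and 70.6% of the C1q-led cluster's cells in cKO and 60.8% and 65.3% in WT, and the part that depth plays in its metallothionein level was not tested.

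Treg had more metallothionein RNA than conventional CD4 T cells in every library. Mt1 was at 180 and 137 CPM in Treg of cKO-1 and cKO-2 and 105 and 124 CPM in Treg of WT-1 and WT-2, and conventional CD4 T cells had 79.6 and 46.4 CPM in cKO and 43.3 and 33.9 CPM in WT. The log2 fold change was 1.40 ± 0.13 (SE; adjusted p = 3.68e-08, edgeR). Mt2 was at 47.5 and 38.4 CPM in cKO Treg and 20.3 and 28.9 CPM in WT Treg, and conventional CD4 T cells had 13.3 and 6.47 CPM in cKO and 2.13 and 7.60 CPM in WT. Its log2 fold change was 2.14 ± 0.26 (adjusted p = 1.02e-06, edgeR). Mtf1 had 0.06 ± 0.24 (adjusted p = 0.887, edgeR) and Slc30a1 was too low to be tested, in a comparison that called 27.2% of all genes.

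NK cells and CD8 T cells did not differ in any of the 4 genes by this test, which called 45.2% of all genes. The log2 fold changes of NK cells against CD8 T cells were -0.17 ± 0.14 for Mt1 (adjusted p = 0.351, edgeR) and -0.33 ± 0.23 for Mt2 (adjusted p = 0.291, edgeR). The direction was not uniform, since both genes were lower in NK cells in 3 libraries and higher in WT-2. Within NK cells the gene levels split by cluster: in the cluster led by Gzmg and Gzmd, granzyme genes, Mt1 averaged 413 ± 4.0 CPM in cKO and 347 ± 187 CPM in WT (SD, n = 2 each). That cluster held 5.21% and 2.99% of NK cells in cKO-1 and cKO-2, against 4.5% and 8.31% in WT-1 and WT-2. Its share of NK Mt2 UMIs was 28% and 17.3% in cKO, against 16.3% and 67.5% in WT, so the WT-2 value of NK Mt2 rested mainly on it.

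**Figure D2:**
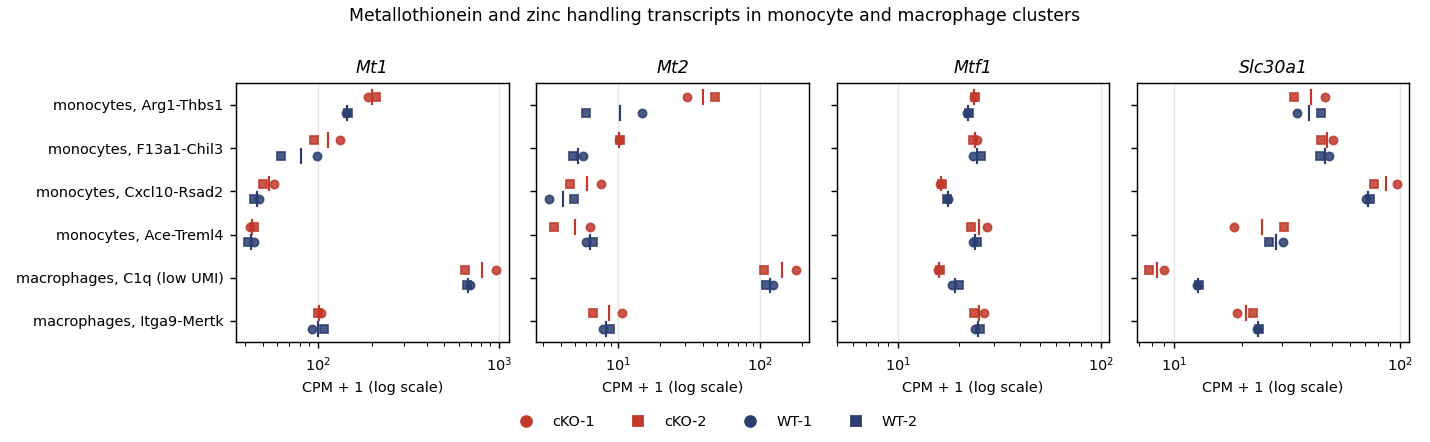
Level of the 4 genes (CPM, log axis) in the clusters of monocytes and macrophages, with 1 point per library. The C1q-led macrophage cluster had a Mt1 mean of 744.2 CPM over the 4 libraries, above the 100.6 CPM of the Itga9-led macrophage cluster.

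In monocytes, the class for which the genes were picked, Mt2 was at 14.4 and 14.5 CPM in cKO-1 and cKO-2, against 4.73 and 4.56 CPM in WT-1 and WT-2. These levels rested on 300 and 396 UMIs in cKO and 143 and 144 UMIs in WT. Both cKO libraries stood above both WT libraries, and libraries of the same genotype lay close together. The log2 fold change was 1.66 ± 0.15 (SE). At Leiden resolution 2 it was 0.66, and there 588 cells led by Gpnmb, Mmp12, Fnip2 and Snx24, with Arg1, were named macrophages. Mt1 was at 114 and 93.6 CPM in cKO, against 69.7 and 56.4 CPM in WT, again without overlap (0.74 ± 0.14). Slc30a1 had a log2 fold change of 0.18 ± 0.11 with its cKO values above its WT values, and Mtf1 had 0.01 ± 0.12 with overlapping values. In monocytes 14.6% of genes with at least 10 UMIs had both cKO libraries above both WT libraries, and 0.0145% of all genes tested were called. Monocyte depth differed as well, with medians of 13639 and 12449 UMIs per cell in cKO-1 and cKO-2, against 10782 and 10286 in WT-1 and WT-2. Erythroid markers in monocytes summed to 189 and 1.87 CPM in cKO-1 and cKO-2, against 0.628 and 5.45 CPM in WT-1 and WT-2, and their part in the Mt2 values was not tested.

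Monocyte Mt2 came from few cells. A Mt2 UMI was found in 117 of 1498 cells in cKO-1 and 94 of 2189 in cKO-2, against 99 of 2760 in WT-1 and 98 of 2879 in WT-2. The share of cells was 7.81% and 4.29% in cKO and 3.59% and 3.4% in WT. The cells with Mt2 held more of it in cKO, with 2.56 and 4.21 UMIs per such cell, against 1.44 and 1.47 in WT. A single cell held up to 30 and 69 Mt2 UMIs in cKO-1 and cKO-2, against 11 and 8 in WT-1 and WT-2. The 10 cells with the most Mt2 held 45.3% and 61.9% of all monocyte Mt2 UMIs in cKO, against 30.8% and 31.9% in WT.

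With every cell thinned to 2000 UMIs, the share of monocytes with a Mt2 UMI was 2.48% in cKO-1 (exact 95% binomial interval 1.74 to 3.41, counting error only) and 1.09% in cKO-2 (0.694 to 1.64). It was 0.893% in WT-1 (0.573 to 1.33) and 0.798% in WT-2 (0.501 to 1.21). Cells under 2000 UMIs were left out, 44 and 84 in cKO and 73 and 122 in WT. B cells, taken as a class with little Mt2, had 0.685% and 0.943% in cKO-1 and cKO-2, against 0% and 1.57% in WT-1 and WT-2. The shares in cKO-2 and WT monocytes lay within the range of the B cells, whose upper end was set by WT-2, so no difference in the share of cells is read from them, and the share in cKO-1 lay above that range. In plasmacytoid dendritic cells the shares were 1.08% and 0.474% in cKO and 0% and 0% in WT. The mean number of Mt2 UMIs per thinned monocyte was 0.0358 and 0.0233 in cKO, against 0.0093 and 0.00834 in WT, so the level differed more than the share of cells did. Mt1 was more widespread: after thinning, 14.6% and 11.6% of cKO monocytes had a Mt1 UMI, against 11% and 8.56% of WT monocytes.

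**Figure D3:**
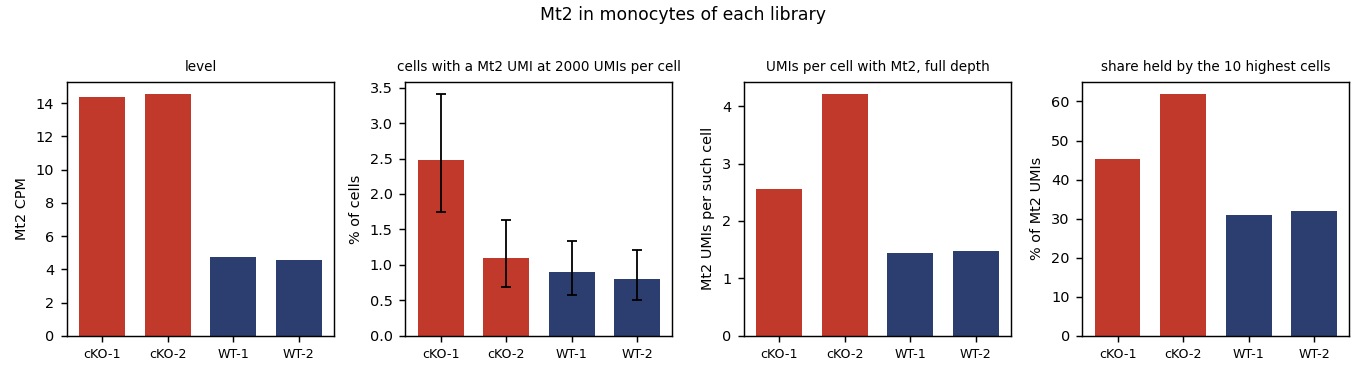
Mt2 in monocytes of each library, with the level (CPM), the share of cells with a Mt2 UMI (percent), the UMIs per such cell and the share of Mt2 UMIs held by the 10 highest cells (percent). The level was 14.38 and 14.54 CPM in cKO against 4.729 and 4.559 CPM in WT, and the 10 highest cells held 45.3% and 61.9% of the UMIs in cKO against 30.8% and 31.9% in WT.

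Mt2 was found more often in cells that also had Mt1, in monocytes, fibroblast-like cells and CD8 T cells. Among monocytes thinned to 2000 UMIs, Mt2 was found in 9.43% and 6.53% of cKO cells with Mt1, against 3.04% and 2.97% of WT cells with Mt1. In cells without a Mt1 UMI it was found in 1.29% and 0.376% in cKO, against 0.627% and 0.595% in WT. The same held in fibroblast-like cells, where Mt2 was found in 69.4% and 71.8% of cKO cells with Mt1, against 56.2% and 65.8% of WT cells with Mt1. Among fibroblast-like cells without Mt1 it was found in 4.55% and 12.8% in cKO, against 11.1% and 12.3% in WT. In CD8 T cells 16.4% and 29.4% of cKO cells with Mt1 had Mt2, against 16.4% and 11.5% of WT cells with Mt1, and without Mt1 these shares were 3.16% and 3.62% in cKO and 1.56% and 2.79% in WT. Most thinned monocytes with Mt1 had no Mt2, and of 296 and 236 WT monocytes with Mt1, 9 and 7 had both. Type 1 and plasmacytoid dendritic cells had 0 cells with both in each library, as did B cells in 3 of 4 libraries, at the few cells that had Mt1 there.

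Within monocytes, Mt2 was highest in the cluster led by Gpnmb, Arg1, Thbs1 and Vegfa in 3 of 4 libraries, and in WT-2 the cluster with Ace and Treml4 was higher. In the Gpnmb-led cluster Mt2 was at 30 and 47.6 CPM in cKO-1 and cKO-2, against 13.8 and 5.03 CPM in WT-1 and WT-2 (log2 fold change 1.995 ± 0.35). The cluster led by F13a1, with Chil3 and Vcan, had 9.20 and 9.35 CPM in cKO, against 4.67 and 3.89 CPM in WT (1.15 ± 0.28). The cluster led by Cxcl10 and Rsad2, genes known to be induced by interferon, had 6.60 and 3.65 CPM in cKO, against 2.27 and 3.97 CPM in WT (0.69 ± 0.38), and these overlapped. The cluster with Ace and Treml4, markers of non-classical monocytes, had 5.43 and 2.55 CPM in cKO, against 5.03 and 5.74 CPM in WT (-0.42 ± 0.43). A cluster led by haemoglobin genes was left unnamed, and Mt2 averaged 5.04 ± 0.91 CPM in cKO and 4.24 ± 2.84 CPM in WT there (SD, n = 2 each).

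The Arg1-led cluster also made up a different part of the class. It held 30.7% and 21.1% of monocytes in cKO-1 and cKO-2, against 11.6% and 7.92% in WT-1 and WT-2, and 65.3% and 73.2% of monocyte Mt2 UMIs in cKO, against 34.3% and 9.72% in WT. In WT-2 the Ace and Treml4 cluster held 36.8% of them. These shares place the UMIs and are not a test, since the genes that lead the cluster may themselves differ between genotypes. Without that cluster the log2 fold change of Mt2 in monocytes was 0.64 and that of Mt1 was 0.41, against 1.66 and 0.74 with it. With each monocyte cluster given equal weight, Mt2 had 1.36 and Mt1 had 0.39. Both were chosen after seeing the data. Slc30a1 had its highest level in the Cxcl10-led cluster, at 95.8 and 75.9 CPM in cKO, against 69.9 and 72.6 CPM in WT. In the Arg1-led cluster it averaged 39.3 ± 8.9 CPM in cKO and 38.6 ± 6.8 CPM in WT, and in the Ace and Treml4 cluster 23.5 ± 8.7 CPM in cKO and 27.3 ± 2.9 CPM in WT (SD, n = 2 each).

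In the 14 classes other than monocytes, edgeR called 0 of the 4 genes between cKO and WT in any class, and DESeq2 called 1, Mt1 in CD8 T cells (adjusted p = 0.0493). The share of all genes called by DESeq2 is not given here. Mt1 was tested in 14 classes and had an unadjusted p under 0.05 in 8 of them, 6 with cKO higher and 2 with cKO lower, and its smallest adjusted p was 0.146 (edgeR). Mt2 was tested in 8 classes and had an unadjusted p under 0.05 in 3, all with cKO higher, with a smallest adjusted p of 0.216 (edgeR). Mtf1 in 11 classes and Slc30a1 in 10 had 0 classes with an unadjusted p under 0.05. Over all genes tested, an unadjusted p under 0.05 in either direction was found in 10.8% of genes in B cells, 9.05% in neutrophils, 8.45% in CD8 T cells, 8.43% in conventional CD4 T cells, 7.94% in plasmacytoid dendritic cells, 7.67% in mast cells and basophils and 6.98% in gamma-delta T cells. It was found in 6.21% in macrophages, 6.21% in type 2 dendritic cells, 6.06% in fibroblast-like cells, 5.77% in Treg, 5.34% in NK cells, 4.01% in migratory dendritic cells and 3.14% in type 1 dendritic cells. With adjustment, the same test called 0.423% of all genes in B cells, 0.418% in conventional CD4 T cells, 0.382% in plasmacytoid dendritic cells, 0.118% in Treg, 0.0433% in CD8 T cells and 0% in the other 9 classes. All classes come from the same 4 libraries and are not independent of each other. Since the labels do not say whether each library is a separate animal, the p-values speak only to the spread among these libraries, which may be technical.

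Read by overlap in place of the test, Mt1 had both cKO libraries above both WT libraries in 6 of the 14 classes and both below in 1. All genes with at least 10 UMIs gave the background: both cKO libraries were above in 17.5% of genes in conventional CD4 T cells, 15.3% in CD8 T cells, 15.5% in Treg, 14% in fibroblast-like cells, 18.5% in gamma-delta T cells and 17.4% in type 2 dendritic cells, the 6 classes for Mt1, and both were below in 21.6% in plasmacytoid dendritic cells. Mt2 had both cKO libraries above in 3 of the 14 classes, CD8 T cells, Treg and fibroblast-like cells. Slc30a1 was below in both cKO libraries in 6 classes, with a background of 21.8% in B cells, 21.5% in NK cells, 16.3% in macrophages, 16.7% in type 1 dendritic cells and 17.8% in type 2 dendritic cells beside plasmacytoid dendritic cells. It was above in CD8 T cells and in migratory dendritic cells, where 16.3% of genes were above. Mtf1 was below in both cKO libraries in NK cells, Treg (18.4% of genes) and mast cells and basophils (17.6% of genes).

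The T cells, in which the title places the loss of Trim25, had the values nearest to a call. In all T cells Mt1 was at 131 and 167 CPM in cKO-1 and cKO-2, against 92.3 and 95.5 CPM in WT-1 and WT-2 (log2 fold change 0.69 ± 0.13, adjusted p = 0.0908, edgeR). Mt2 was at 37.8 and 64.9 CPM in cKO, against 28.0 and 27.9 CPM in WT (0.91 ± 0.20, adjusted p = 0.145, edgeR). Both cKO libraries stood above both WT libraries for either gene, as was the case for 15.3% of genes, and the test called 0.049% of genes. DESeq2 called both genes (adjusted p of 0.00353 for Mt1 and 0.0364 for Mt2). The share of all genes that DESeq2 called is not given here, so its calls have no background beside them. Without cKO-2 the log2 fold changes were 0.50 for Mt1 and 0.45 for Mt2, and without cKO-1 they were 0.86 for Mt1 and 1.24 for Mt2. Macrophage markers in these T cells summed to 1091 and 1030 CPM in cKO, against 794 and 790 CPM in WT, and their part in the metallothionein values was not tested. The pool left out gamma-delta T cells and the unnamed T cell clusters led by Klra6 and by Lef1. Mt1 averaged 47.7 CPM in cKO and 42.05 CPM in WT in the Klra6-led cluster, and 81.5 and 79.7 CPM in the Lef1-led one. Mt2 averaged 8.48 CPM in cKO and 9.655 CPM in WT in the Klra6-led cluster, and 23.9 and 13.1 CPM in the Lef1-led one. The cKO and WT libraries overlapped for each of these.

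Within T cells, CD8 T cells had Mt2 at 40.8 and 79.8 CPM in cKO-1 and cKO-2, against 35.9 and 31.9 CPM in WT-1 and WT-2 (0.88 ± 0.24, adjusted p = 0.216, edgeR). Without cKO-2 this was 0.29, so the size rested on that library. The CD8 cluster led by Pdcd1 and Ifng, genes of the PD-1 receptor and of interferon gamma, held 73.1% and 72.8% of CD8 Mt2 UMIs in cKO, against 55.7% and 59% in WT, and its Mt2 averaged 73.4 ± 24.9 CPM in cKO and 40.9 ± 0.63 CPM in WT (SD, n = 2 each; adjusted p = 0.203, edgeR). In the Gzmk-led CD8 cluster Mt1 averaged 64.6 ± 5.2 CPM in cKO and 87.5 ± 2.1 CPM in WT, the opposite sign (-0.43 ± 0.23, adjusted p = 0.750, edgeR). Treg had a Mt2 log2 fold change of 0.79 ± 0.27 (adjusted p = 0.510, edgeR), and at Leiden resolution 2 the sign turned, to -0.0467 for Mt2 and -0.065 for Mt1. Conventional CD4 T cells had 0.73 ± 0.26 for Mt1 (adjusted p = 0.343, edgeR). Slc30a1 in CD8 T cells had 0.56 ± 0.35 (adjusted p = 0.741, edgeR).

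Gamma-delta T cells had the widest Mt1 ratio and few UMIs. There were 29 and 32 Mt1 UMIs in cKO-1 and cKO-2, against 2 and 3 in WT-1 and WT-2, from 91 and 130 cells in cKO and 37 and 69 cells in WT. This gave 56.9 and 45.1 CPM in cKO, against 9.04 and 8.502 CPM in WT (2.49 ± 0.55, adjusted p = 0.271, edgeR). At 2000 UMIs per cell the share of cells with Mt1 was 2.67% and 6.25% in cKO, against 3.03% and 1.72% in WT, so the share overlapped while the level did not. Macrophage markers summed to 712 and 921 CPM in cKO, against 782 and 360 CPM in WT gamma-delta T cells.

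The sign of Mt1 was opposite in plasmacytoid dendritic cells and B cells. In plasmacytoid dendritic cells it was at 5.28 and 6.33 CPM in cKO-1 and cKO-2, against 19.4 and 12.9 CPM in WT-1 and WT-2 (-1.38 ± 0.39, adjusted p = 0.244, edgeR). B cells had 26.7 and 11.9 CPM in cKO, against 25.9 and 49.4 CPM in WT (-1.004 ± 0.39, adjusted p = 0.374, edgeR), with overlap. In fibroblast-like cells both genes were higher in both cKO libraries, with 0.59 ± 0.17 for Mt1 (adjusted p = 0.658, edgeR) and 0.49 ± 0.16 for Mt2 (adjusted p = 0.718, edgeR). Their cell numbers were uneven, at 398 and 143 in cKO, against 76 and 178 in WT.

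Macrophages, the nearest class to monocytes, had Mt2 at 31.8 and 15.6 CPM in cKO-1 and cKO-2, against 18 and 19.3 CPM in WT-1 and WT-2 (0.34 ± 0.28, adjusted p = 0.896, edgeR). The values overlapped, and without cKO-1 the log2 fold change was -0.26. Slc30a1 was lower in both cKO libraries (-0.22 ± 0.13, adjusted p = 0.842, edgeR). The genotype effect in macrophages minus that in all T cells was -0.51 ± 0.20 for Mt1 (adjusted p = 0.515, edgeR), -0.60 ± 0.40 for Mt2 (adjusted p = 0.797, edgeR) and -0.72 ± 0.25 for Slc30a1 (adjusted p = 0.428, edgeR). This test of the difference called 0.0506% of genes and 0 of the 4. With cells thinned the signs turned, to 0.095 for Mt1 and 0.0365 for Mt2, and without cKO-1 the values were -0.92 and -1.50. In NK cells Mt2 was at 35.1 and 29.8 CPM in cKO, against 24.2 and 46.3 CPM in WT (-0.12 ± 0.23, adjusted p = 0.986, edgeR). Without WT-1 this became -0.51 and without WT-2 it became 0.48.

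**Figure D4:**
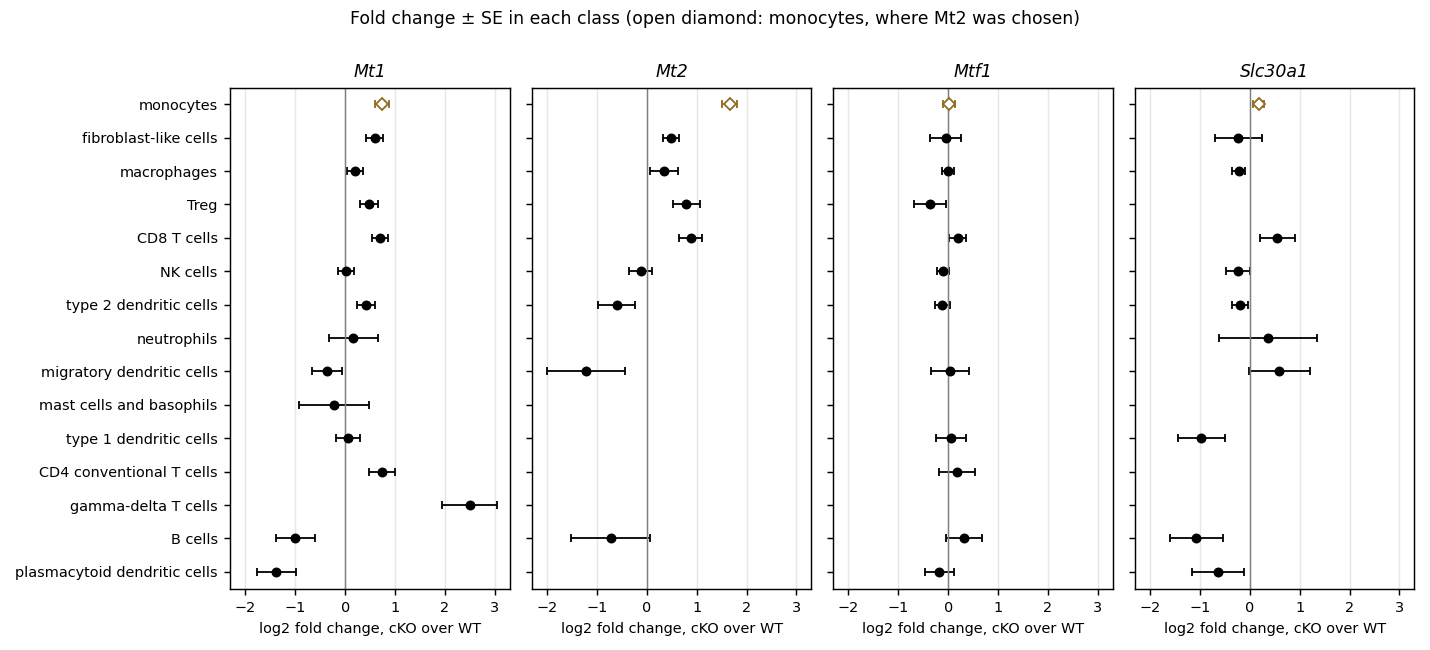
Log2 fold change of cKO over WT (bars are ± 1 SE) for the 4 genes in each class where the gene passed the filter on low counts. Monocytes carry no test, with Mt2 at 1.66 and Mt1 at 0.74, and in the other classes 0 values passed an adjusted p of 0.05.

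Among the zinc transporters other than Slc30a1, the 5 highest in monocytes were 3 ZnT genes and 2 ZIP genes. Slc30a7, which encodes ZnT7 of the Golgi, was at 85.1 and 89.7 CPM in cKO-1 and cKO-2, against 96.2 and 90.5 CPM in WT-1 and WT-2. Slc30a5, which encodes ZnT5, was at 47.4 and 43.1 CPM in cKO, against 51.1 and 41.1 CPM in WT. Slc30a9, which encodes the mitochondrial zinc transporter ZnT9, was at 38.0 and 34.2 CPM in cKO, against 34.1 and 31.1 CPM in WT. The leading importer genes were Slc39a10, at 26.0 and 24.3 CPM in cKO against 21.9 and 23.6 CPM in WT, and Slc39a11, at 22.8 and 23.5 CPM in cKO against 23.9 and 22.9 CPM in WT. Slc39a14, a zinc and iron importer named here after its values were seen, was at 24.1 and 17.7 CPM in cKO, against 13.3 and 14.3 CPM in WT (0.62 ± 0.16). In macrophages its log2 fold change was 0.08.

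Of 9 ZnT genes other than Slc30a1, 5 were tested in monocytes, 1 had a value above 0, and the median log2 fold change was -0.03, beside -0.003 over all genes tested. Of 14 ZIP importer genes, 10 were tested in monocytes, 6 were above 0, and the median was 0.03. In macrophages 2 of 5 ZnT genes and 8 of 11 ZIP genes were above 0, with medians of -0.002 and 0.05. In NK cells 1 of 5 ZnT genes and 4 of 11 ZIP genes were above 0, with medians of -0.15 and -0.077. In conventional CD4 T cells 2 of 4 and 2 of 8 were above 0, with medians of 0.086 and -0.22. In macrophages edgeR called 0 genes of either list, with an unadjusted p under 0.05 for 0 ZnT genes and 1 ZIP gene.

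**Figure D5:**
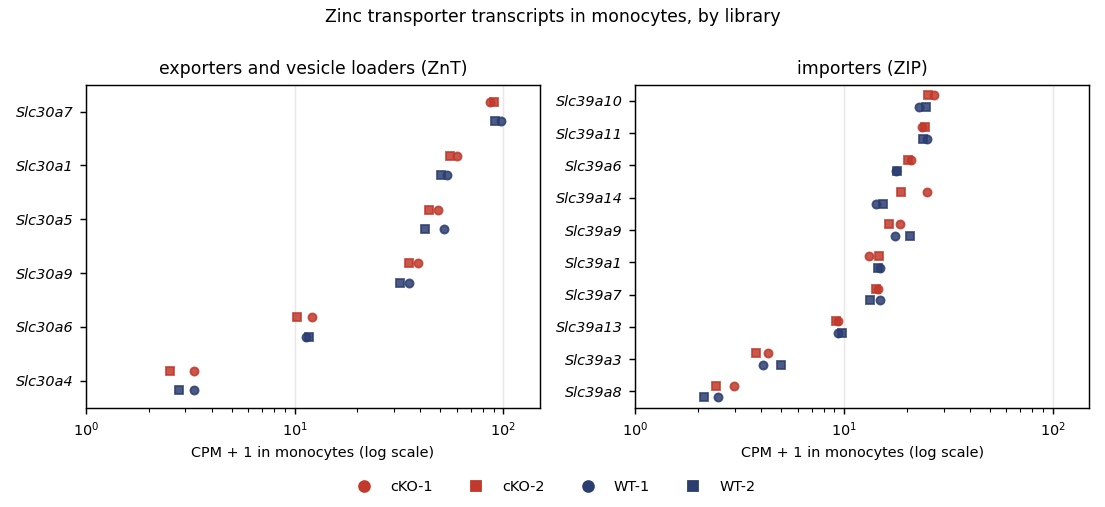
Level (CPM, log axis) of the zinc transporter genes in monocytes of each library. Slc30a7 was highest, and its cKO values of 85.1 and 89.7 CPM lay beside WT values of 96.2 and 90.5 CPM.

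Other lists of genes known to respond to metals, stress or signals that induce metallothioneins gave 0 calls by edgeR in each of the 8 classes examined. Over all 10 lists DESeq2 called 5 genes in monocytes, 2 in macrophages, 3 in neutrophils, 1 in type 2 dendritic cells, 1 in CD8 T cells and 0 in NK cells, conventional CD4 T cells and Treg. These DESeq2 counts have no share of all genes called beside them. Of 17 oxidative stress genes, all were tested in monocytes and 9 were above 0, with a median of 0.0002. Of 12 glucocorticoid response genes, 11 were tested and 6 were above 0, with a median of 0.23. Iron handling had 9 of 12 tested genes above 0 with a median of 0.17, copper handling 4 of 9 with a median of -0.05, and interleukin-6 and STAT3 response 4 of 11 with a median of -0.06. The S100a8 and S100a9 pair had a median of -0.65. Hypoxia response had 19 of 20 genes above 0 and a median of 0.47 in monocytes, where the contrast is the one that chose Mt2. Vegfa and Egln3 of this list were among the leading genes of the Arg1-led cluster, which held a larger part of monocytes in cKO than in WT. The part of that cluster in the monocyte value was not tested. The same list had 15 of 16 above 0 with a median of 0.88 in neutrophils, 16 of 20 with 0.25 in macrophages, 15 of 19 with 0.20 in CD8 T cells, 17 of 19 with 0.16 in NK cells, 11 of 18 with 0.12 in Treg, 12 of 19 with 0.085 in type 2 dendritic cells and 14 of 19 with 0.069 in conventional CD4 T cells. An unadjusted p under 0.05 was found for 10, 7, 5, 5, 2, 2 and 3 of its tested genes in these classes, in the same order. Since the classes share their libraries, these values are set side by side only.

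By pattern over the 60 class and library sums, each gene centred within its library, Mt2 was most like Dclk1 (Pearson r = 0.836), Asns (0.829) and Mt1 (0.814), followed by Tmem237, Kmt5a, Gapdh, Pdap1 and Ckap2. Mt1 was most like Gapdh (0.821), Mt2 (0.814) and Tpi1 (0.813), followed by Pgam1, Snrpb2, Snhg6, Gm3839 and Pgk1. The points are 15 classes of 4 libraries, share libraries and cell types, and are given as a description. Without the fibroblast-like class, Mt2 was most like Itgav (0.756), Kif15 (0.75) and Rgs16 (0.746), and Mt1 was at 0.643, in rank 44. Over 24 sums of monocyte and macrophage clusters, Mt2 was most like Rnasek (0.956), while Mt1 was at 0.949 and Slc30a1 at -0.707. Mtf1 had r = 0.044 with Mt2 over the 60 sums.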

How the data were processed

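The deposited matrices hold raw UMI counts per gene and cell barcode, 1 per library, made by the authors and not normalized. Cell Ranger, STAR and the build mm10 (GRCm38) are named in the submitters' processing notes, without versions or settings. Cells with at least 500 UMIs, at least 300 genes and at most 15% mitochondrial UMIs were kept. Cells with a Scrublet doublet score above 0.2 were left out of the classes as mixed droplets (its automatic threshold marked 1 cell in all 4 libraries). So were whole clusters with a median score above 0.1. Cells were clustered with Leiden (scanpy 1.11.5) on 2000 variable genes. The 4 genes, the genes of all 10 lists, Trim25, Vsir and Cd4 were kept out of these. T and NK cell clusters were then clustered again alone. Clusters were named from fixed markers, with thresholds set after seeing the data. UMIs were summed per library and class and tested, two-sided, with edgeR 4.0.16 (quasi-likelihood, TMM, filterByExpr, Benjamini-Hochberg, 0.05), or with the library as a block between classes. The script was tested on simulated data. DESeq2 1.42.0, no filter, thinning to 2000 UMIs, Leiden resolution 2, other cell filters and libraries left out were alternatives. The 4 genes are named everywhere; of each list, genes that passed the test, and of the transporters the 5 highest in monocytes; and the 8 genes most like Mt2 or Mt1. The genes and lists were chosen with earlier results of these data known. Precision is set by the UMIs behind each value, 96751399 to 127449324 per library.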

Additional observations from a re-analysis of the deposited data

Results flagged for a closer look

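In monocytes both cKO libraries were above both WT libraries for Mt1, and in other classes Mt1 or Slc30a1 separated the genotypes too, some in the same direction and some in the opposite one. The values below are log2 fold changes of cKO over WT, and the difference between classes was not tested, except that between macrophages and all T cells. That test gave no call for any of the 4 genes (smallest adjusted p = 0.428, edgeR). For Mt1 both cKO libraries were higher in conventional CD4 T cells (0.73), CD8 T cells (0.70), Treg (0.48, which turned to -0.065 at Leiden resolution 2), fibroblast-like cells (0.59), gamma-delta T cells (2.49) and type 2 dendritic cells (0.43), and both were lower in plasmacytoid dendritic cells (-1.38). For Slc30a1 both cKO libraries were higher in CD8 T cells (0.56) and migratory dendritic cells (0.59). Both were lower in B cells (-1.07), NK cells (-0.24), macrophages (-0.22), plasmacytoid dendritic cells (-0.63), type 1 dendritic cells (-0.97) and type 2 dendritic cells (-0.20). Several of these Slc30a1 values rest on few UMIs. Migratory dendritic cells had 5 and 12 UMIs in cKO, against 7 and 9 in WT, and B cells 7 and 4, against 10 and 16. Plasmacytoid dendritic cells had 4 and 13 UMIs in cKO, against 12 and 22 in WT. Across the classes and directions named here, 14% to 21.8% of genes with at least 10 UMIs were separated in the same way. Every class holds the same 4 libraries.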

How the results depend on the processing

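Counts of the 4 genes called between cKO and WT were 0 by edgeR in each class tested, all but monocytes, and moved with the setting. Without the low-count filter they were 2 in all T cells, 1 in B cells, 2 in CD8 T cells, 1 in fibroblast-like cells, 1 in gamma-delta T cells and 1 in plasmacytoid dendritic cells. DESeq2 gave 2 in all T cells and 1 in CD8 T cells, and thinning gave 1 in CD8 T cells. The number of all genes called is given at the end as a range over the settings, not for each setting. Leaving out 1 library gave 0 to 2 in all T cells, CD8 T cells and fibroblast-like cells, and 0 to 1 in B cells, conventional CD4 T cells, gamma-delta T cells, macrophages and NK cells. In these refits an arm of 1 library is assumed to vary like the other arm. For NK cells against CD8 T cells the count was 1 without the filter, 2 at Leiden resolution 2 and 0 to 2 with a library left out. For the difference between macrophages and all T cells it was 1 without the filter and 0 to 2 with a library left out. For macrophages against monocytes it was 3, and 1 without the C1q-led cluster. The 3 include Mt2, whose monocyte values chose the genes, so this count is a description. In the reported fit of that comparison 64.9% of all genes were called.

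The calls that came with a library left out belong to the values below. For cKO against WT they are given as effect sizes only, since 1 arm then held 1 library. Without cKO-1, CD8 T cells had Mt1 at 0.95 and Mt2 at 1.28, against 0.38 and 0.29 without cKO-2. Fibroblast-like Mt1 was 0.76 and Mt2 0.66 without cKO-1, and conventional CD4 Mt1 was 1.05 without cKO-2. Gamma-delta Mt1 was 2.52 without WT-1. B cell Mt1 was -1.38 without WT-1 and -1.68 without cKO-1. Macrophage Mt2 was 0.76 without cKO-2. NK against CD8 T cells had Mt1 at -0.37 and Mt2 at -0.68 without WT-2, both called. The macrophage minus T cell difference was -0.92 for Mt1 and -1.50 for Mt2 without cKO-1.

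Signs that reversed were Treg Mt1 (-0.065) and Mt2 (-0.0467) at resolution 2, NK Mt1 thinned (-0.31), B cell Mt2 at resolution 2 (0.30), macrophage over monocyte Mt2 (-0.46) and Mtf1 (0.0148) without the C1q-led cluster and Mtf1 thinned (0.051), and the macrophage minus T cell Mt1 (0.095) and Mt2 (0.0365) thinned. With a library left out, NK Mt1 ran from -0.24 to 0.36, NK Mt2 from -0.51 to 0.48, macrophage Mt1 from -0.0646 to 0.41, macrophage Mt2 from -0.26 to 0.76 and B cell Mt2 from -1.53 to 2.78. NK against CD8 T cells ran from -0.37 to 0.0484 for Mt1, -0.68 to 0.0708 for Mt2 and -0.008 to 0.34 for Slc30a1. Treg over conventional CD4 Mtf1 ran from -0.10 to 0.33, and the macrophage minus T cell difference from -1.50 to 0.30 for Mt2 and -0.24 to 0.0211 for Mtf1. Monocyte Mt2 was 1.64 to 1.69 with a library left out, and 0.66 at resolution 2, 0.64 without the Arg1-led cluster and 1.36 with clusters weighted equally. Macrophage over monocyte Mt1 was 0.0827 without the C1q-led cluster, no longer called. Mt1 there was 0.39 at resolution 2. The cause of these changes was not tested.

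List genes called were 0 by edgeR in all 8 classes, where the counts in monocytes belong to the contrast that chose Mt2. Without the filter they were 17 in monocytes, 4 in neutrophils, 4 in type 2 dendritic cells, 5 in NK cells, 5 in CD8 T cells and 1 in conventional CD4 T cells. With DESeq2 they were 5, 2, 3, 1 and 1 in monocytes, macrophages, neutrophils, type 2 dendritic cells and CD8 T cells, and thinned 1 in type 2 dendritic cells and 1 in CD8 T cells. With a library left out they were 0 to 14 in monocytes, 0 to 3 in macrophages, 0 to 4 in neutrophils, type 2 dendritic cells and conventional CD4 T cells, 0 to 13 in NK cells and 0 to 9 in CD8 T cells.

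The replicate numbers pair the samples by number only: deviations of same-numbered libraries correlated at -0.141 in monocytes, -0.008 in macrophages, 0.06 in NK cells and 0.099 in all T cells. With the replicate block, 2 of the 4 genes were called in all T cells (adjusted p of 0.0152 for Mt1 and 0.0371 for Mt2, edgeR), 1 in CD8 T cells and 1 in gamma-delta T cells. List genes called under the replicate block were 5 in monocytes, 8 in neutrophils, 2 in type 2 dendritic cells, 1 in NK cells, 3 in CD8 T cells and 2 in conventional CD4 T cells. With the numbers crossed in monocytes, chosen after seeing the data, 24 genes were called in place of 2.

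Over all genes tested, the number called between cKO and WT ranged over the alternatives from 0 to 236 in monocytes (2 in the reported fit), 1 to 244 in all T cells (6), 5 to 295 in CD8 T cells (5), 14 to 123 in conventional CD4 T cells (36), 3 to 39 in Treg (11), 11 to 422 in B cells (37), 0 to 235 in plasmacytoid dendritic cells (37), 0 to 527 in NK cells (0) and 0 to 27 in macrophages (0). In the other classes it reached at most 123 (0). It was 6497 to 9229 for macrophages against monocytes (8983), 2946 to 6060 for NK cells against CD8 T cells (5674), 1326 to 2747 for Treg against conventional CD4 T cells (2634) and 1 to 230 for the macrophage minus T cell difference (7).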
